A study of Solanum lycopersicum with 6 samples.

Results

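psi14B, a tomato gene for a phosphatase that is induced when plants run short of phosphate, is 1 of 803 named genes on the array, and 3 of the 10101 tested probe sets carried its symbol. The probe sets were found by an exact match of the symbol in the platform annotation. The gene itself was chosen by its deposited drought and control values, which were known to differ, so these differences are described and not tested. The fruits were from plants of the dwarf cultivar Micro-Tom held in a greenhouse at 25 °C in the day and 20 °C in the evening, and the tissue label is mature green fruit. The drought group holds 3 arrays of fruits from plants given a 500-fold dilution of liquid fertilizer once a week, and the control group holds 3 arrays of fruits from plants grown under normal conditions with the same dilution, given, as the labels word it, until planting. Fruits of both groups were harvested between 30 and 40 days after flowering. Water and nutrient supply changed together in the stressed plants, so the treatment does not tell an effect of water from one of nutrients. The number of fertilizer doses per week is not given for the control plants. Whether the drought plants got less phosphate than these is therefore not known. The labels do not say whether the arrays of a group come from separate plants, so any p-value given below measures only the spread between arrays, which may be technical.

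Plants that lack phosphate switch on a set of genes for releasing, taking up and saving it. In tomato these include high-affinity phosphate transporters, secreted and intracellular ribonucleases that free phosphate from RNA, acid phosphatases, and the psi14 genes, which are also known as the LePS2 family. LePS2 proteins belong to the haloacid dehalogenase class of phosphatases, and related enzymes of Arabidopsis release phosphate from phosphoethanolamine and phosphocholine, the head groups of membrane phospholipids. Most of what is known of this response comes from roots, leaves and cultured cells rather than from fruit.

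In the RefSeq gene table (assembly SLM_r2.1), psi14B lies next to its relative psi14A, and psi14C follows on the far side of psi14A with no annotated gene between them. psi14A had a probe set of its own on the array, whereas no probe set carried the symbol psi14C in the annotation. The 3 psi14B probe sets are told apart here by the endings of their names. Those ending in x_at and s_at share 1 sequence record, and the third, ending in a plain at, comes from another. In the array maker's naming, s_at means that the probes match more than 1 transcript, x_at that some probes match other transcripts in part, and a plain at that the probes are meant to be unique. Signal of the x_at and s_at probe sets may therefore include transcripts of other family members, and these 2 probe sets may share probes, so they are not independent measurements.

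The x_at and s_at probe sets of psi14B were higher in every drought array than in every control array. The x_at probe set stood at 6.97, 7.01 and 7.03 on the log2 scale in drought replicates 1 to 3, against 6.87, 6.86 and 6.89 in control replicates 1 to 3. The s_at probe set stood at 6.58, 6.61 and 6.62 in drought replicates 1 to 3, against 6.49, 6.49 and 6.50 in control replicates 1 to 3. In both probe sets drought replicate 1 was the lowest of the drought arrays and control replicate 3 the highest of the control arrays, and the groups did not overlap. In RNA of fruit tissue, more cells of a type and more RNA per cell cannot be told apart. The gap between the nearest drought and control arrays was 0.080 for x_at and 0.075 for s_at. It was wider than the range of the 3 drought arrays (0.061 and 0.046) and than that of the 3 control arrays (0.024 and 0.017). The choice of the gene by its difference favours such a gap, so nothing is read from this comparison.

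The third probe set was nearly flat. All 6 arrays read 6.2303, and the values spanned 1.03e-05 on the log2 scale. The 3 drought arrays lay inside the span of the 3 control arrays. Of the 10101 probe sets, 1467 had a range this small or smaller. Thus 2 of 3 psi14B probe sets had no overlap between drought and control and were higher in drought, as were 20.5% of all tested probe sets.

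**Figure D1:**
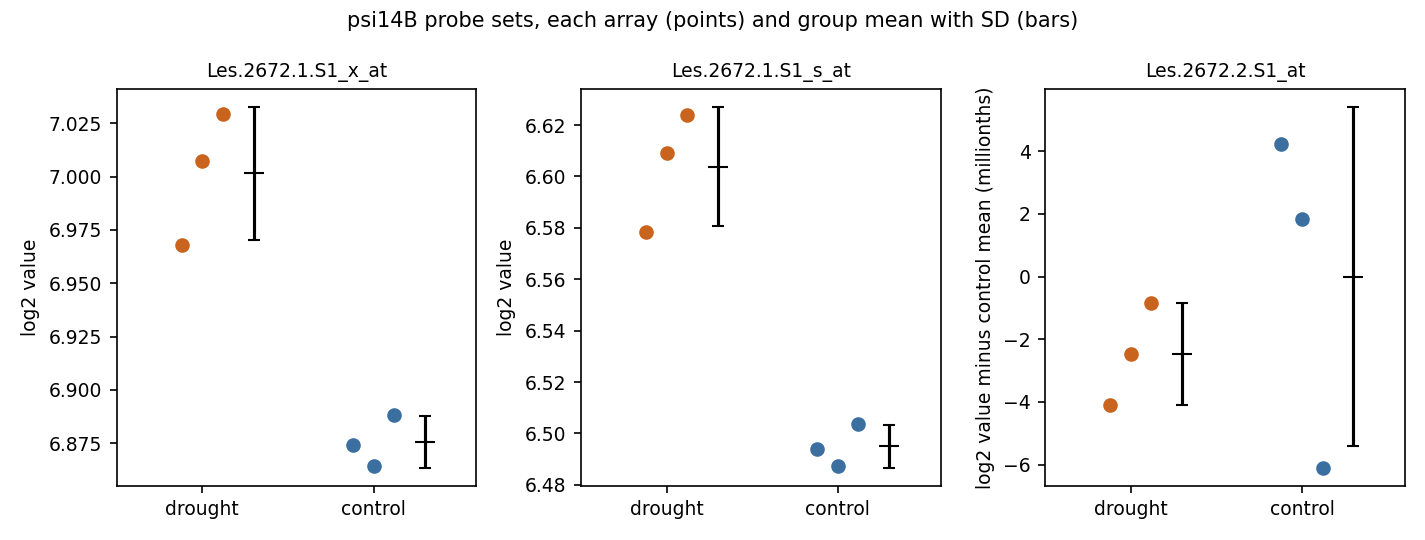
Log2 values of the 3 psi14B probe sets in each drought and control array (points), with the group mean and SD (bars, n = 3). The left and middle panels show levels, with all drought arrays above all control arrays. The right panel shows the flat probe set as millionths of a log2 unit from its control mean, since its whole range is 1.03e-05.

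As group means, x_at was at 7.0015 ± 0.031 in drought and 6.8756 ± 0.012 in control (SD, n = 3 each), a difference of 0.13 ± 0.018 (SE from the limma fit over all probe sets). The s_at probe set averaged 6.6038 ± 0.023 in drought and 6.4951 ± 0.0084 in control (SD, n = 3 each), a difference of 0.11 ± 0.014 (SE). If the deposited scale is a plain log2 scale, these are ratios of 1.09 and 1.08. The flat probe set differed by -2.5e-06 ± 3.7e-06 (SE). Without any 1 array the difference ran from 0.112 to 0.143 for x_at and from 0.0987 to 0.121 for s_at, lowest in each case without drought replicate 3 and highest without drought replicate 1. Averaging the 3 probe sets gave 0.078.

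The x_at and s_at probe sets moved together from array to array. Relative to its control mean, x_at was raised by 0.092, 0.13 and 0.15 in drought replicates 1 to 3. The s_at probe set was raised by 0.083, 0.11 and 0.13 in the same arrays. The x_at difference was 1.16 times that of s_at. With each profile scaled to 0 at its lowest array and 1 at its highest, the 2 differed by 0.016 on average over the 6 arrays.

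Most probe sets of this table hardly moved, which sets the scale for these values. Across the 6 arrays 75.71% of the tested probe sets spanned less than 0.001, and 268 of them (2.653%) spanned more than 0.1. Bacterial and phage spike-in probe sets, which match no tomato gene, had a largest range of 0.0004673 (69 probe sets) and a median range of 1.123e-05. These ranges hold technical variation alone and not that between fruit samples, so they are no yardstick for the psi14B differences. In the order of absolute drought minus control difference, x_at stood at place 140 and s_at at place 152 of 10101, and the flat probe set at place 8487. By size of rise among the 909 probe sets with a gene symbol, x_at was at place 11 and s_at at place 15. The gene was chosen by this same difference, which favours a high place, so nothing is read from these places. The x_at and s_at probe sets were both dim. The mean of s_at lay at the 23.1st percentile of all probe sets and that of x_at at the 30.4th, where the 25th percentile of an array was 6.635 to 6.644.

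Other genes also had 1 moving and 1 flat probe set. Of 82 genes with several probe sets, 12 had at least 1 with a range over 0.1, and in 5 of these another probe set had a range under 0.001. The ratio of the largest to the smallest range had a median of 15.3 over the 82 genes. It was 15965 for psi14B, the second highest after the pathogenesis-related gene PR1b1 (329984), and it exceeded 1000 in 9 genes. These ratios do not tell which probe set follows the transcript.

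**Figure D2:**
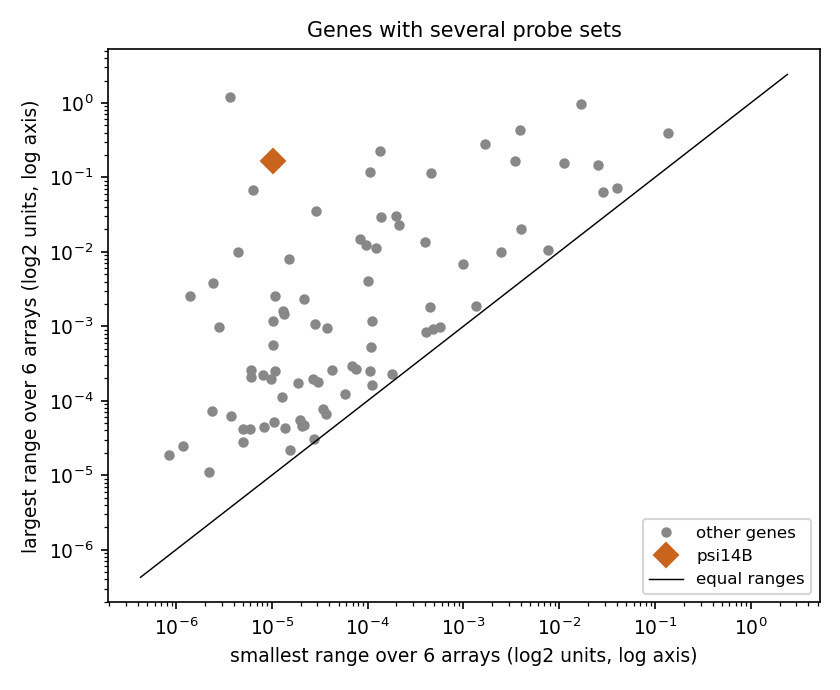
For each of the 82 genes with several probe sets, the largest range over the 6 arrays (vertical, log axis) against the smallest (horizontal, log axis), both in log2 units. psi14B (diamond) lies far above the line of equal ranges, at 0.17 against 1.03e-05.

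psi14A, the neighbouring gene of the same family, stayed flat, as did most probe sets. psi14A had a range of 0.000135, against a median of 0.000129 over all tested probe sets. It stood at 6.2108, 6.2108 and 6.2107 in drought replicates 1 to 3, against 6.2108, 6.2108 and 6.2107 in control replicates 1 to 3. Its difference of -3.8e-06 ± 5.0e-05 (SE) was not past the limma threshold (adjusted p = 0.982), and its sign turned when single arrays were left out. The level of psi14A was also low, below the 25th percentile of every array.

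The other genes of the phosphate response did not pass the test. The list of 55 names gave 8 genes on the array beside psi14B, namely psi14A and 7 more. Genes were matched by symbol or synonym alone, and whether PAP1 is an acid phosphatase gene was not settled. In limma with Benjamini-Hochberg adjustment over all probe sets, 0 of the 8 were higher and 0 lower in drought at an adjusted p under 0.05. Over all tested probe sets 0.762% were called (77, of which 53 higher and 24 lower). At an unadjusted p under 0.05 there was 1 of 8 genes, against 2524 of 10101 probe sets. The median difference of the list was -1.1e-05, against -1.1e-07 over all probe sets. When control replicate 3 was left out the 77 calls became 546, and when control replicate 1 was left out they became 7. Leaving out drought replicate 1, or else drought replicate 2, gave 1 call each, and leaving out control replicate 2, or else drought replicate 3, gave 0. The list's count stayed at 0 without any 1 array.

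Among the transporters, PT1, which encodes a high-affinity phosphate transporter known from tomato roots, was the only gene of the list with a range over 0.1. PT1 stood at 7.38, 7.41 and 7.43 in drought replicates 1 to 3, against 7.50, 7.49 and 7.41 in control replicates 1 to 3. Control replicate 3 lay among the drought arrays, so the groups overlapped. The difference of -0.060 ± 0.029 (SE) was opposite in sign to that of the x_at and s_at probe sets of psi14B and missed the limma threshold (adjusted p = 0.291). PT2, a second transporter of the same family, was lower in every drought array than in every control array, but by only 0.00037 in the mean (-0.00037 ± 0.00018, SE, adjusted p = 0.283). The PT2 difference was -0.00021 with control replicate 2 left out and -0.0059 after median centring (adjusted p = 0.0201), where most probe sets passed.

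Both ribonucleases known from phosphate-starved tomato cells were measured. RNALE, for the secreted RNase LE, stood at 6.637, 6.643 and 6.636 in drought replicates 1 to 3, against 6.628, 6.628 and 6.634 in control replicates 1 to 3. The groups did not overlap, and the difference of 0.0083 ± 0.0027 (SE) missed the limma threshold (adjusted p = 0.168). It was 0.0044 after quantile normalization and 0.0028 after median centring. Of the 8 genes RNALE was the one higher in drought without overlap and PT2 the one lower without overlap, where 20.5% and 14.3% of all tested probe sets were so. The gene of the intracellular RNase LX, rnalx, differed by 8.9e-06 ± 1.8e-05 (SE, adjusted p = 0.819).

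TPSI1, a short transcript known for its rise in phosphate-starved tomato, stood at 9.263, 9.247 and 9.260 in drought replicates 1 to 3, against 9.256, 9.270 and 9.268 in control replicates 1 to 3. The groups overlapped, and the difference was -0.0078 ± 0.0062 (SE, limma adjusted p = 0.504). Leaving out drought replicate 2 gave -0.0032, leaving out control replicate 2 gave -0.0050 and leaving out control replicate 1 gave -0.0122. Both scalings made it -0.013, with a limma adjusted p of 0.182 after quantile normalization and 0.0298 after centring, where most probe sets passed. The acid phosphatase gene APS1 (-1.7e-05 ± 6.7e-05, SE, adjusted p = 0.919) and PAP1 (1.9e-07 ± 2.3e-05, SE, adjusted p = 0.999) had ranges of at most 0.00021.

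**Figure D3:**
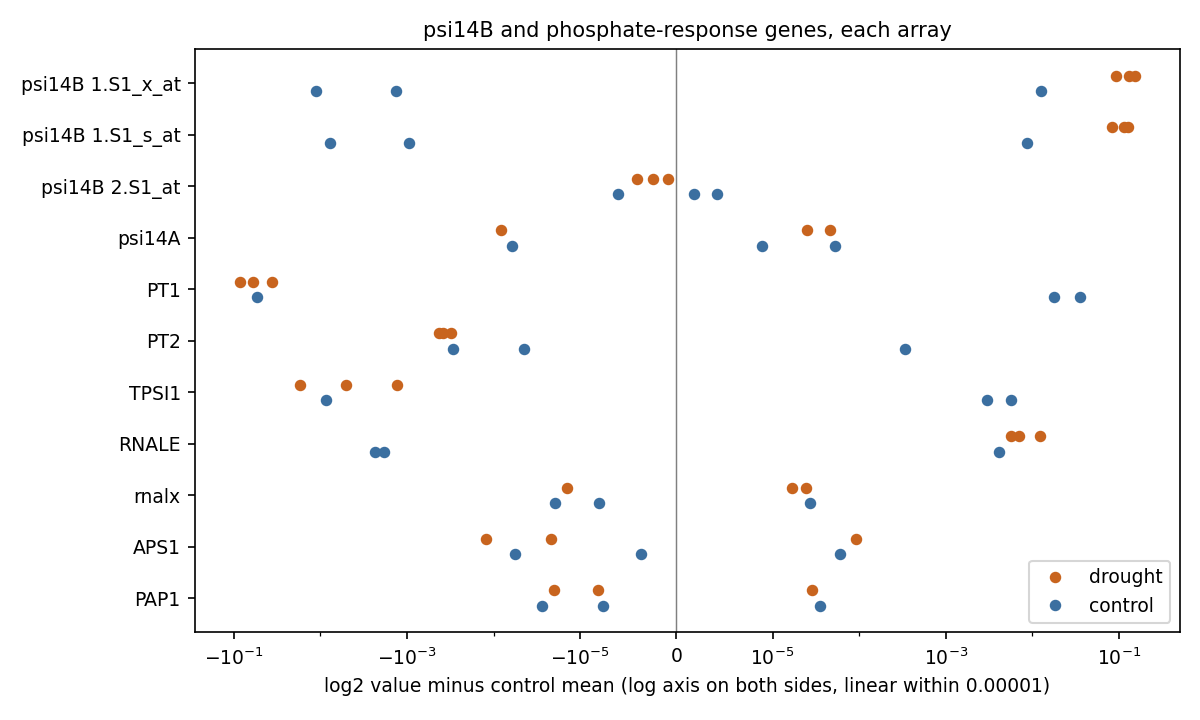
Log2 value minus the gene's control mean in each drought array (upper points of a row) and control array (lower points) for the 3 psi14B probe sets and 8 phosphate-response genes. The axis is logarithmic on both sides and linear within 0.00001. Among these rows, only the x_at and s_at probe sets of psi14B have all drought arrays more than 0.05 above the control mean.

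Genes for the uptake of other nutrients were read from the same fit, since the fertilizer supply was part of the treatment. Of 12 such genes on the array, 0 passed the limma threshold in either direction, against 0.762% of all tested probe sets. An unadjusted p under 0.05 was found for 2 of the 12, against 2524 of 10101 probe sets. With so few genes, these counts do not show whether nutrient uptake genes responded. NRAMP3, for a metal transporter, differed by -0.0017 ± 0.00047 (SE, adjusted p = 0.132). LHA1, for a plasma membrane proton pump, differed by 0.00096 ± 0.00033 (SE, adjusted p = 0.178). The ammonium transporter gene AMT1-2 spanned 2.1e-05 over the arrays. MT2, for a metal-binding metallothionein, and the sulfate transporter gene ST2, named after their values were seen because they were the 2 with a range over 0.1, differed by 0.028 ± 0.074 and 0.0095 ± 0.069 (SE), and their drought arrays lay inside the span of the control arrays.

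Membrane lipid genes were of interest because of the substrates of the Arabidopsis relatives of psi14B. Of 6 on the array, 0 passed the limma threshold, against 0.762% of all tested probe sets. At an unadjusted p under 0.05 there were 3, against 2524 of 10101 probe sets. With so few genes, nothing is read from these counts. Fad7, for a plastid fatty acid desaturase, differed by 0.0010 ± 0.00019 (SE, adjusted p = 0.0753), and the phospholipase D gene PLDa2 by -0.00034 ± 9.4e-05 (SE, adjusted p = 0.134). No gene of this list had a range over 0.1.

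Genes known for their response to water deficit gave 0 limma calls among 10 as well, against 0.762% of all tested probe sets. Where 2524 of 10101 probe sets had an unadjusted p under 0.05, 2 of the 10 genes did. These were PRO2, for an enzyme of proline synthesis (3.9e-05 ± 4.0e-06, SE, adjusted p = 0.0506, 0.0443 with array weights, and 0.0201 to 0.274 over all alternatives, where it was below 0 after both scalings), and LEA14, for a late embryogenesis abundant protein (-0.0039 ± 0.0014, SE, adjusted p = 0.1996). Of the 10 genes, 8 had a lower mean in drought, against 5133 of 10101 probe sets. The 3 with a range over 0.1, chosen after their values were seen, were ER5 (-0.33 ± 0.15, SE), CBF1 (-0.21 ± 0.15) and TAS14 (-0.15 ± 0.091), with adjusted p from 0.264 to 0.436. In size their differences exceeded that of psi14B, with wider spreads and with drought and control arrays overlapping.

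The place of control replicate 3 among the arrays was measured on a scale from 0, the mean of control replicates 1 and 2, to 1, the mean of the drought arrays. Over the 268 probe sets with a range over 0.1 the median place was 0.753 (quartiles 0.465 and 0.989), nearer to drought than to the other controls. For psi14B it was 0.144 (x_at) and 0.117 (s_at), and 14 of the 268 probe sets lay between 0 and 0.2. The gene was chosen by its difference between the groups, which itself favours a low place of each control array, so these places are given as a description and nothing is read from them. The x_at difference without control replicate 3 was 0.132, close to the 0.126 with all arrays.

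**Figure D4:**
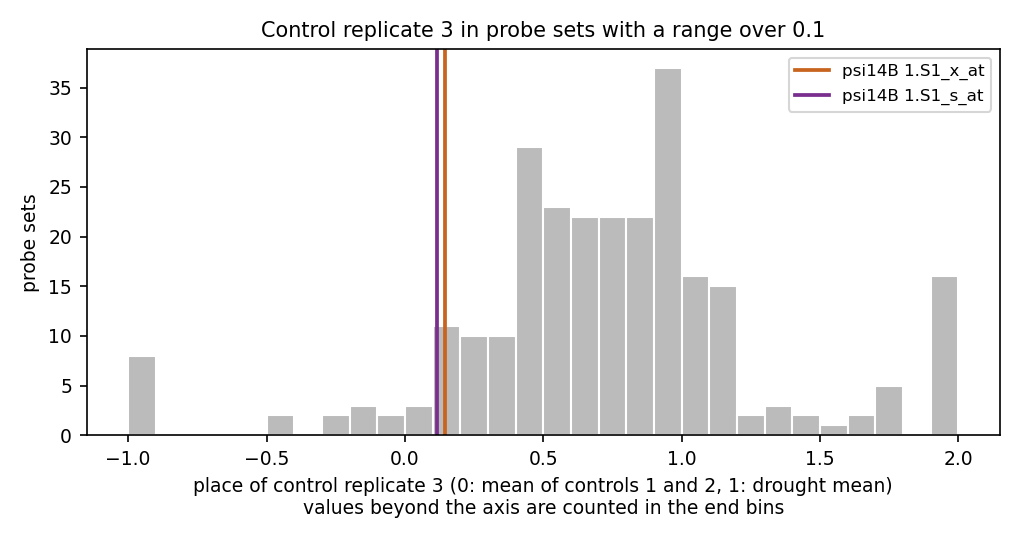
Number of probe sets with a range over 0.1 (268 in all) by the place of control replicate 3 between the mean of control replicates 1 and 2 (0) and the drought mean (1). Vertical lines mark the psi14B probe sets at 0.144 and 0.117, left of the median of 0.753.

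The genes with the profile most like psi14B were sought among the 72 other probe sets with a gene symbol and a range over 0.1, with the x_at probe set as the model. Likeness was the mean absolute gap between profiles scaled from 0 to 1 over the 6 arrays. Its median over the 72 was 0.596. DFR, for dihydroflavonol reductase of the anthocyanin pathway, was nearest with a gap of 0.0893. It stood at 6.27, 6.26 and 6.27 in drought replicates 1 to 3, against 6.15, 6.14 and 6.17 in control replicates 1 to 3. Like psi14B it was lowest in control replicate 2 and, of the controls, highest in control replicate 3. Of the drought arrays, DFR was lowest in replicate 2 (scaled value 0.931), whereas x_at of psi14B was lowest in replicate 1 (0.628).

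The expansin gene exp18, whose product loosens cell walls, came next with a gap of 0.132. It stood at 8.64, 8.67 and 8.67 in drought replicates 1 to 3, against 8.53, 8.58 and 8.55 in control replicates 1 to 3. The other 3 were LOC544001, LOC543898 and LOC543646, which have no name in the tables used, with gaps of 0.135 to 0.138. Their differences were 0.12 for LOC544001, 1.12 for LOC543898 and 2.82 for LOC543646. Their shapes also differed: the scaled value of LOC544001 in control replicate 2 was 0.618, against 0.020 for LOC543898 and 0.014 for LOC543646. All 5 were higher in drought without overlap, which choosing them by likeness largely fixes. In the limma fit DFR passed the threshold (adjusted p = 0.0443), as did 0.762% of all tested probe sets. The adjusted p ran from 0.0633 to 0.204 for exp18, LOC544001, LOC543898 and LOC543646. The choice by likeness also favours a low p, so nothing is read from these values.

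**Figure D5:**
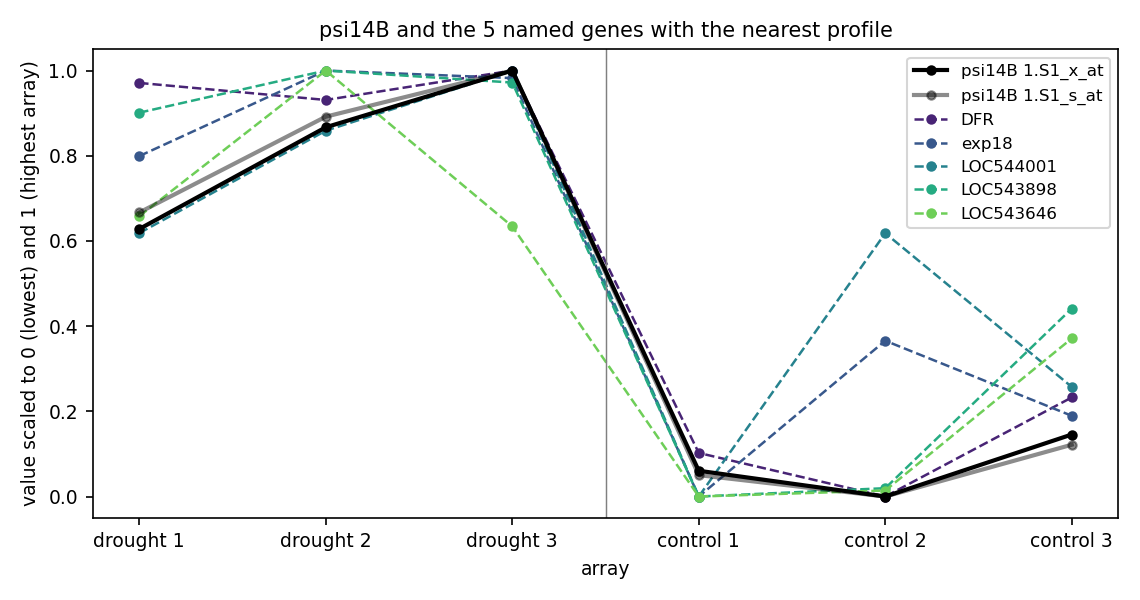
Values of the x_at and s_at psi14B probe sets (solid) and the 5 nearest named genes (dashed) in the 3 drought arrays and 3 control arrays, each scaled to 0 at its lowest and 1 at its highest array. Lines only join the points of a probe set. The 2 psi14B profiles nearly coincide, and DFR runs closest to them.

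Turned upside down, 3 profiles came closest to psi14B. These were NP24-I, for an osmotin-like protein (mirrored gap 0.114), the MADS-box gene TDR8 (0.122) and ER1, known as an ethylene-responsive proteinase inhibitor gene (0.125). NP24-I stood at 6.85, 6.79 and 6.77 in drought replicates 1 to 3, against 7.21, 7.33 and 7.14 in control replicates 1 to 3. The mean differences were -0.42 for NP24-I, -0.27 for ER1 and -0.083 for TDR8. Choosing them by mirrored likeness largely fixes that they were lower in drought, so nothing is read from these values.

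Markers of tissues were read beside these values. The 3 chlorophyll-binding protein genes found (CAB4, CAB5 and CAB6A) were present at means of 7.31 to 10.7 in drought and 7.33 to 10.7 in control, and their averaged level ran from 9.16 to 9.24 in drought and from 9.19 to 9.26 in control. The 3 lipid transfer protein genes of the epidermis averaged 9.774 to 9.780 in drought and 9.784 to 9.791 in control. This average was lower in every drought array. Of the 3 genes, TSW12 and ltpg1 were lower without overlap, as were 14.3% of all tested probe sets. LE16, which is also on the water deficit list, overlapped. TPRP-F1, a proline-rich protein gene known from young tomato fruit, was at 8.95, 8.43 and 8.15 in drought replicates 1 to 3, against 7.08, 8.82 and 9.46 in control replicates 1 to 3. None of the 6 seed marker names was found. The MADS-box gene AGL11, taken for inner fruit tissue, averaged 8.989 in drought and 8.967 in control, and its drought and control arrays overlapped. The 4 genes taken as root markers (PT1, PT2, TPSI1 and RSI-1) averaged 8.105 to 8.116 in drought and 8.113 to 8.133 in control, so their groups overlapped. PT1, PT2 and TPSI1 are the same probe sets as in the phosphate-response list, so they give no separate reading of tissue. The part of tissue makeup in the psi14B difference was not tested.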

How the data were processed

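Labelled cRNA from 6 fruit samples was hybridized in 1 colour, and samples were grouped by their titles. The authors deposited 1 value per probe set, taken here as log2 from the range of the values; background correction, normalization and summary method are not given in the sources used here, so a difference may not equal a measured fold. The table held 10209 probe sets, and without the maker's 108 control probe sets 10101 were tested. The platform annotation gave 1 gene symbol for 909 of them (803 genes, 885 probe sets matched in the RefSeq table) and none for the rest. Arrays have no counts, so their number limits the precision.

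The two-sided moderated test of limma 3.58.1 (R 4.3.3), drought minus control, was run on the deposited log2 values with neither a block nor a filter. Its p-values were adjusted by Benjamini-Hochberg across the 10101 probe sets, and an adjusted p under 0.05 was a call. For a gene with several probe sets the brightest stands for it in a list. On simulated arrays with 200 changed of 10101 probe sets in drought against control, each added log2 size was given to 50 probe sets. The test found 46 at size 0.01, 47 at 0.1, 49 at 1 and 50 at 2, and made 10 false calls. The simulated noise was independent between probe sets, with no shift shared within an array. These rates therefore need not hold for the real arrays. Named were all psi14B probe sets, every phosphate-response gene, the called or otherwise the 2 top genes of the other lists, the 5 nearest profiles and the 3 nearest mirrored ones. The gene, lists and rules were chosen with earlier results of these data known. Alternatives were quantile normalization, median centring, leaving out the dimmest 30%, the replicate number as a block, array weights, a trended robust prior, leaving out each array, averaging the psi14B probe sets, and other likeness settings. Any 2 arrays were over 0.1 apart in 47 or more probe sets, and all 6 were kept as separate.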

Additional observations from a re-analysis of the deposited data

How the results depend on the processing

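The x_at and s_at differences of psi14B stayed above 0 and within 1 SD under quantile normalization, median centring, array weights, the replicate number as a block (0.126 and 0.109, as without it) and leaving out each array. Without the dimmest 30% of probe sets only x_at remained. The mean of the 3 psi14B probe sets differed by 0.078. The flat probe set went to -0.00068 after quantile normalization and -0.0055 after centring, and from -5.5e-06 to -3.5e-07 without single arrays. The count of probe sets called was 0 after quantile normalization, 9406 after centring, 0 with the replicate number as a block, 391 with array weights, and 0 to 546 without single arrays. The count of phosphate-response genes called was 0 under every alternative run except centring, where it was 7, as most probe sets were called there; centring shifted the median of all differences to -0.0055. Of the 5 nearest profiles, 0 were shared when the flat probe set was the model. Signs that turned were those of rnalx (-0.0034 after quantile normalization, -0.0055 after centring), PAP1 (-0.00049, -0.0055, and -5.6e-06 with array weights), LHA1 (-0.0025, -0.0046), Fad7 (-0.0019, -0.0045) and PRO2 (-0.0015, -0.0055). Without single arrays the differences ran from -7.8e-07 to 2.3e-05 for rnalx, -7.2e-05 to 3.5e-05 for APS1, -3.4e-05 to 3.6e-05 for psi14A and -1.4e-05 to 1.8e-05 for PAP1. The cause of these changes was not tested. The labels do not say whether arrays of the same replicate number share a batch. Drought and control arrays of the same number deviated with correlations of -0.092, -0.023 and -0.106 across probe sets. With 3 arrays in each group these values cannot settle whether a batch was shared. At 6.2 to 7.0 the psi14B probe sets were dim, and no measure of signal over background is in the values used here.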
